A study of Mus musculus with 16 samples.

Results

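The macrophage and monocyte genes described here are a set of 34 protein-coding genes chosen by gene symbol, and all 34 were found among the 15156 genes of the deposited table of normalized counts. They were read as 4 classes. The resident class had 12 genes, the monocyte-derived class 7, the lipid or scavenger class 5 and the shared myeloid class 10. Total RNA was sequenced from whole pancreas of 16 adult mice, 4 in each of 4 genotypes, which the labels call independent biological replicates. DMC mice carried Daxx fl/fl, Men1 fl/fl and the Pdx1-Cre transgene, MC mice Men1 fl/fl and Pdx1-Cre, and DC mice Daxx fl/fl and Pdx1-Cre. WT mice are given as wild type, with no Cre named. Every mouse, WT included, was 6 to 10 weeks old and received caerulein, a cholecystokinin analogue that injures acinar cells. It was given at 50 ug/kg per injection, as 4 hourly injections into the peritoneum on 3 days a week for 3 weeks, and tissue was taken 5 days after the final dose. Pdx1-Cre acts in pancreatic epithelium, so haematopoietic cells are not its intended target. Pancreas without caerulein was not analysed here, so the values describe genotypes within treated tissue.

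Pancreatic macrophages come from more than one source. Some are seeded in the embryo and maintain themselves in the tissue, and others derive from blood monocytes that enter through the chemokine receptor CCR2 and its ligand CCL2. Both need signalling through the CSF1 receptor and the lineage factor PU.1, and both can take up lipid and debris through scavenger receptors and TREM2 after acinar injury. The resident class holds genes often used to mark settled macrophages (Timd4, Lyve1, Folr2, Cd163, Mrc1, Mertk, Maf, Cx3cr1, Adgre1 and the 3 chains of complement C1q). The monocyte-derived class holds Ccr2, Ccl2, Cd14, Itgam, Lyz2, Cybb and Fcgr1, and the lipid or scavenger class Trem2, Apoe, Gpnmb, Msr1 and Cd68. Fcgr1, Itgam, Lyz2 and Cybb serve macrophages as well as monocytes, and Ccl2 is a ligand, not a marker of the cells it draws. The class names therefore sort genes, and the origin of the cells was not measured. The shared class holds Csf1r, Spi1, Tyrobp, Fcer1g, Fcgr3, Aif1, Ctss, Laptm5, Mpeg1 and Ly86, which most mononuclear phagocytes express. Several of these genes are also used by other cells: Lyve1 by lymphatic endothelium, Itgam, Cd14 and Cybb by neutrophils, Apoe by many stromal cells, and Laptm5, Spi1 and Ly86 by B cells.

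Promoter sequences are given for 4 of the genes, from the RefSeq promoter table on GRCm38.p6, in which 24 of the 34 genes were matched by symbol. Fcgr1 is shown because it had the largest log2 difference of the set in MC against WT. C1qb and C1qc are shown because they are genes of 1 complement cluster on chromosome 4 whose ratio varied less than their counts, and Ctss because it was the most abundant shared myeloid gene per length. Each run is the 250 bases before the RefSeq start, 5′ to 3′ on the gene's own strand: chr3:96293970-96294219 (minus strand) for Fcgr1, chr4:136886201-136886450 (minus) for C1qb and chr3:95526536-95526785 (plus) for Ctss. For C1qc only the 99 bases that lie outside the GENCODE gene are printed, chr4:136893066-136893164 (minus). Capitals mark a match to GAGGAAGT overlapping AGGAAGTG on the opposite strand, both forms of the purine-rich site that PU.1, the product of Spi1, binds.
Fcgr1: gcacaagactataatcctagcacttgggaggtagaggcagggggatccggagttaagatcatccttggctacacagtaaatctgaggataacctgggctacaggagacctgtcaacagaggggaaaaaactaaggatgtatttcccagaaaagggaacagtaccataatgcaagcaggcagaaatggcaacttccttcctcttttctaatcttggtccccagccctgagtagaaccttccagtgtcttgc
C1qb: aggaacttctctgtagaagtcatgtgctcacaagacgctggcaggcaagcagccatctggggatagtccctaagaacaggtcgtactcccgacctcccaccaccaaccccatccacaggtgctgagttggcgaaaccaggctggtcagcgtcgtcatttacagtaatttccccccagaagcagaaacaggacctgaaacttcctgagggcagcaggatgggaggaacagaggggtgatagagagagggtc
C1qc: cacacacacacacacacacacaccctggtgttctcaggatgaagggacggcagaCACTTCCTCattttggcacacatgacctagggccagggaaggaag
Ctss: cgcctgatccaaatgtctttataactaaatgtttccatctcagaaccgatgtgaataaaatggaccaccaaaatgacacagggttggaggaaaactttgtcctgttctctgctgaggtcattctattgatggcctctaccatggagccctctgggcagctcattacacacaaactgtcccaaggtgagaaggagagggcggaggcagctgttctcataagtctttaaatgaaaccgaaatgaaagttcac
The match in C1qc begins 196 bases before the RefSeq start, and the other 3 runs shown held neither form. Over the table's whole windows, which also take in 50 bases after the start, GAGGAAGT lay in 2 of 28 windows of the 24 matched genes (7.14%, exact binomial 95% interval 0.877 to 23.5%, C1qc and Ctss) and in 3.2% of all 32851 windows. AGGAAGTG, which shares 7 letters with it, lay in 4 of the 28 (14.3%, C1qc, Ctss, Folr2 and Mrc1) and in 4.07% of all windows. The AP-1 motif TGACTCA lay in 3 (10.7%, Cd68, Folr2 and Gpnmb) and in 5.2% of all windows. Both strands were searched, and a match describes letters in a window, not a bound site.

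Recovered reads came to 13481063 to 23728309 per library. As a check of the labels, Men1 averaged 168 ± 10.6 normalized counts in DMC and 132 ± 13.3 in MC, against 482 ± 61.95 in DC and 368 ± 61.3 in WT (SD, n = 4 each). Daxx averaged 182 ± 30.4 in DMC and 223 ± 15.6 in DC, against 246 ± 26.1 in MC and 263 ± 65.0 in WT. Each Daxx fl/fl group overlapped both MC and WT, so Daxx counts separated neither of them and are a weak check of the labels. Acinar enzyme genes, the defining markers of the tissue, were abundant in every library, and Csf1r and Adgre1, the defining receptors of macrophages, were counted in all 16.

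Lyz2, which encodes the lysozyme M of phagocytes, and Apoe, the apolipoprotein that carries lipid out of cells, were the most abundant of the genes per length, with means over all libraries of 3119 and 2870 normalized counts per kilobase of exon. C1qa (1179), the cathepsin gene Ctss (829) and C1qb (753) followed, and the signalling adaptor Tyrobp reached 424. At the low end stood the lipid receptor Trem2 (17.4), the scavenger receptor Msr1 (16.9), the chemokine Ccl2 (13.1) and the integrin Itgam (9.92). The genes also differed in how far they varied between libraries. Timd4, a receptor for phosphatidylserine on dying cells, spanned 28.4-fold between its lowest and highest library, Fcgr1 19.8-fold, Msr1 17.4-fold and Gpnmb 12.5-fold. Mertk, a kinase receptor for the same cargo, spanned 1.97-fold.

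A single DC and a single WT library carried much of that range. DC replicate 1 was the highest of the 16 libraries for 20 of the 34 genes. It was the highest DC library for 33 of them, and for 34.4% of all 14220 genes tested. WT replicate 1 was the lowest of the 16 for 30 genes and the lowest WT library for 31, against 28.7% of all genes tested. The same libraries stood at opposite ends for acinar enzymes: the mean log2 level of 11 acinar genes was 16.6 in DC replicate 1, the lowest of all libraries, and 18.4 in WT replicate 1, the highest. The 10 most abundant genes took 33.5% of reads in DC replicate 1 and 51.8% in WT replicate 1. WT replicates 2 and 3 had the highest levels of B and plasma cell genes (8.82 and 9.49, against 5.15 and 7.02 in WT replicates 1 and 4), and WT replicate 3 was the highest of all libraries for 7 of the 34 genes, including Timd4, Spi1, Aif1 and Laptm5. The part that these differences in tissue make-up play in the values below was not tested.

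**Figure D1:**
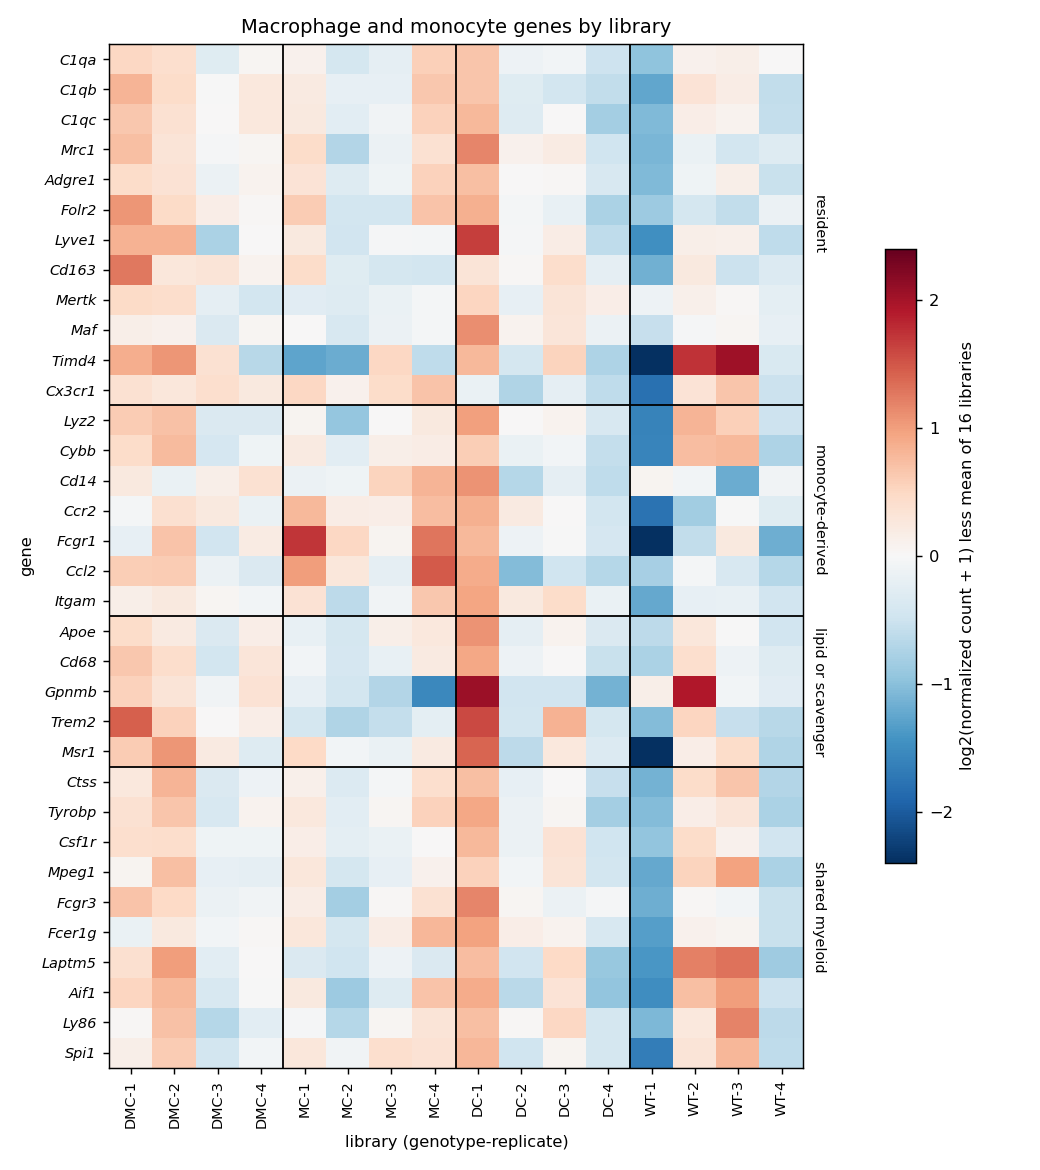
Colour shows log2(normalized count + 1) of each of the 34 genes (rows, by class) in each of 16 libraries (columns, DMC, MC, DC and WT, replicates 1 to 4), less that gene's mean over the libraries. DC replicate 1 is red in most rows, and WT replicate 1, the lowest library for 30 of the 34 genes, is blue.

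No gene of the set passed the adjusted threshold of 0.05 in any comparison of genotypes. Most had positive differences from WT in each of the 3 mutant groups, none of them past that threshold. In DMC against WT, 33 of 34 genes were on the positive side (median log2 difference 0.45), while 47.3% of all genes tested were positive there. In MC against WT 27 were positive (median 0.33, against 47.1% of all genes), and in DC against WT 29 (median 0.31, against 47.3%). The median over all genes tested lay between -0.018 and -0.015 in these comparisons. Single libraries moved these medians by more than 1.5 times. Without WT replicate 1 the median was 0.22 in DMC, 0.03 in MC and 0.11 in DC, and without DC replicate 1 it was 0.06 in DC. Leaving out WT replicate 2 gave 0.68 in DMC, 0.56 in MC and 0.49 in DC. Leaving out WT replicate 3 gave 0.71 in DMC, 0.51 in MC and 0.51 in DC, and leaving out DC replicate 4 gave 0.52 in DC. In DC it turned negative with library weights (-0.11) and without both DC replicate 1 and WT replicate 1 (-0.19), a fit chosen after seeing the data. The 3 comparisons share the same 4 WT libraries, so they are not independent of each other. In bulk tissue, fewer cells of a type and less RNA per cell cannot be told apart.

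Markers of other cell types also had median differences from WT away from 0, with no test of the lists. Of 11 acinar genes 0 were positive in DMC, MC or DC against WT (median log2 differences -0.49, -0.35 and -0.63), and their summed normalized counts were 4595000 to 9124000 in DMC, 4596000 to 8254000 in MC, 3686000 to 7879000 in DC and 6861000 to 13070000 in WT. All 7 fibroblast genes were positive in each of the 3 (0.36, 0.40 and 0.70), with sums of 20510 to 34130 in DMC, 26500 to 43730 in MC, 29250 to 58820 in DC and 20460 to 24030 in WT. Of 7 B and plasma cell genes, 1 was positive in DMC, 0 in MC and 1 in DC (-0.96, -2.52 and -1.197), with sums of 774 to 5192 in DMC, 348 to 1579 in MC, 1684 to 3656 in DC and 834.5 to 7116 in WT. No gene of these 3 lists was at 0 in any library, and their part in the differences of the myeloid set was not tested.

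With limma and Benjamini-Hochberg adjustment over all genes tested, 0 of 34 genes were called in DMC against WT, where 0.788% of all genes were, 0.591% higher and 0.197% lower. The count was also 0 in MC against WT (0.781% of all genes called), DC against WT (0.0211%), DMC against MC (0.00703%), DMC against DC (0.534%), MC against DC (1.37%) and the interaction of both losses (0.0% called). At an unadjusted p under 0.05, 7 genes were higher in DMC than in WT (8.43% of all genes), namely C1qc, Mrc1, Cd163, Fcgr1, Ccr2, Trem2 and Folr2. By that rule 3 were higher in MC than in WT (7.51% of all genes), namely Fcgr1, Ccr2 and Ccl2, and 5 in DC than in WT (7.47%), namely Itgam, Mrc1, Fcgr1, Ccr2 and Maf. It gave 2 genes higher and 0 lower in DMC than in MC (3.19% and 2.38% of all genes), 0 higher and 0 lower in DMC than in DC (7.21% and 6.03%), and 1 higher and 1 lower in MC than in DC (6.67% and 7.05%). None was lower than WT in any mutant group by that rule (4.11% of all genes for DMC, 5.24% for MC and 4.24% for DC). On the recovered reads edgeR called 0 of the 34 in DMC against WT (0.717% of all genes called), MC against WT (0.781%), DC against WT (0.0211%), DMC against MC (0.00703%), DMC against DC (0.499%), MC against DC (1.26%) and the interaction (0.0%). DESeq2 called 2 in MC against WT, Fcgr1 and Ccr2, where it called 2.75% of all genes. It called 0 in DMC against WT (2.33% of all genes), DC against WT (1.98%), DMC against MC (0.394%), DMC against DC (2.43%), MC against DC (3.52%) and the interaction (0.303%). No gene of the set lay wholly below the other group in any comparison, whether DMC against WT (3.02% of all genes), MC against WT (3.23%), DC against WT (1.77%), DMC against MC (1.86%), DMC against DC (2.8%) or MC against DC (4.29%).

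**Figure D2:**
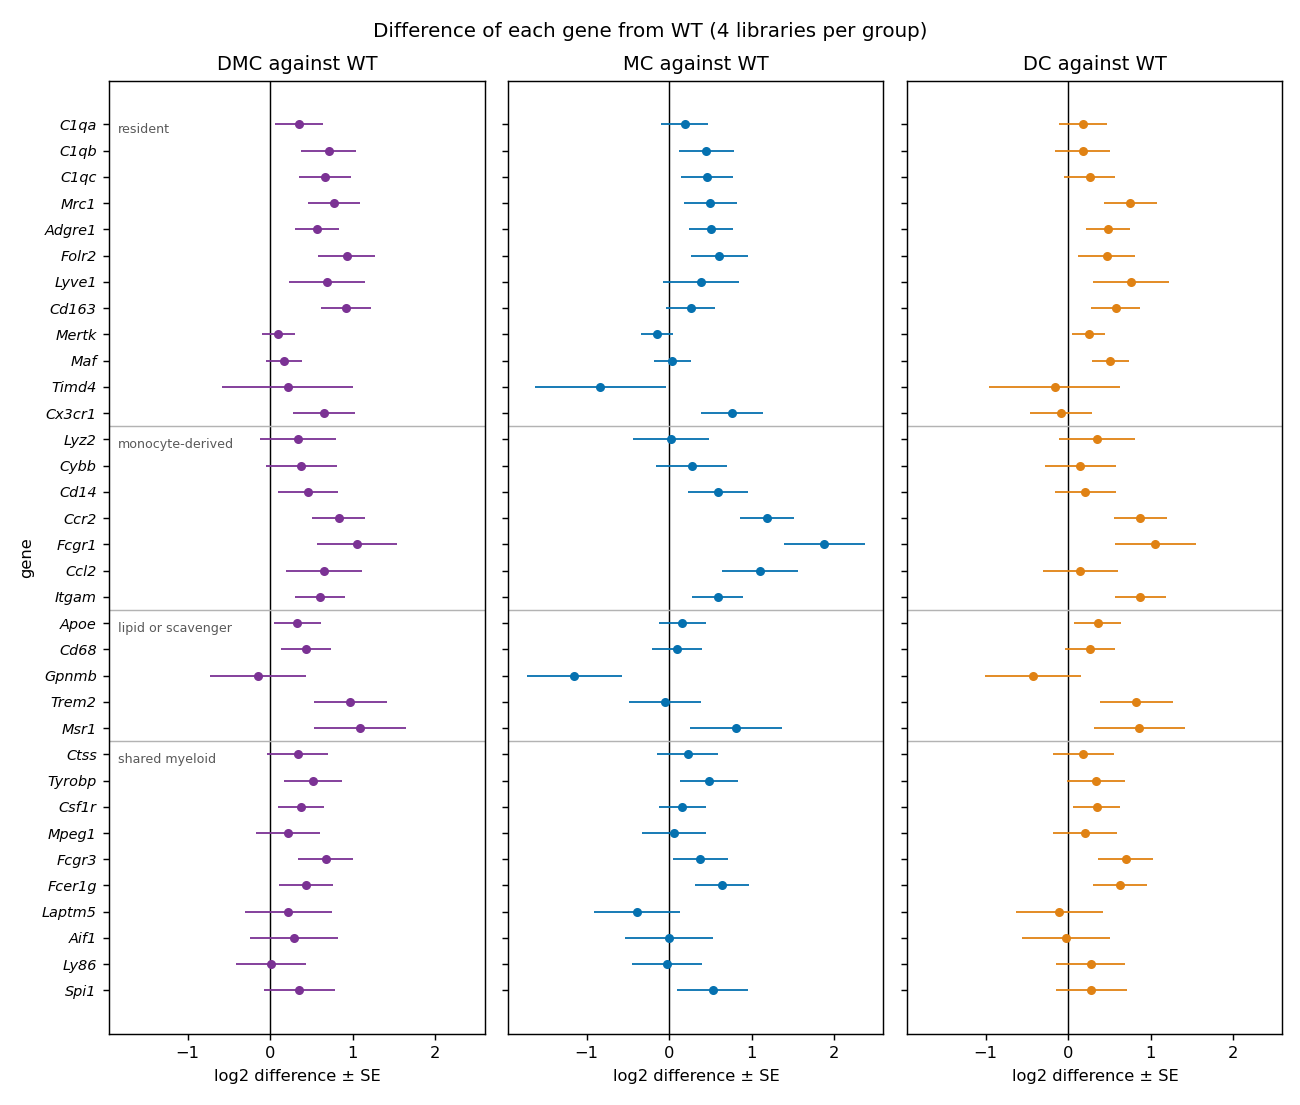
Points show the fitted log2 difference of each gene from WT with its standard error as the bar, in DMC, MC and DC pancreas (4 libraries per group), with genes grouped by class. Most points lie right of 0, and the highest in MC is Fcgr1 at 1.88 ± 0.49, with Ccr2 next at 1.19 ± 0.33.

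Most mononuclear phagocytes express the shared myeloid genes, and B cells also use Laptm5, Spi1 and Ly86 among them. No gene of the 10 was without overlap in any of the 6 comparisons of groups. Of all genes 2.14% to 5.19% had that pattern upward and 1.77% to 4.29% downward, so a count of 0 among 10 genes says little. Csf1r, the receptor for CSF1 and IL-34 on which macrophages depend, had normalized counts of 1347, 1367, 946 and 942 in DMC libraries, 1131, 862, 915 and 1021 in MC, 1743, 924, 1301 and 729 in DC, and 525, 1373, 1093 and 737 in WT. The groups overlapped throughout, with DC replicate 1 highest and WT replicate 1 lowest of all libraries. Its log2 difference from WT, here and below given ± SE with limma's adjusted p, was 0.37 ± 0.28 (adjusted p = 0.611) in DMC, 0.16 ± 0.28 (adjusted p = 0.858) in MC and 0.35 ± 0.28 (adjusted p = 0.691) in DC, and an exact permutation test over its 6 pairs of groups gave p of 0.257 or more in each. Spi1, which encodes PU.1, averaged 69.1 ± 21.5 in DMC, 76.1 ± 11 in MC, 67.9 ± 30.6 in DC and 63.1 ± 40.8 in WT (SD, n = 4 each), and its groups overlapped.

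Ctss, the lysosomal cathepsin S that trims antigen for presentation, had normalized counts of 1252, 1870, 831 and 970.4 in DMC libraries, 1149, 843, 1024 and 1400 in MC, 1735, 925, 1061 and 724 in DC, and 479, 1428, 1676 and 648 in WT. Replicates 2 and 3 of WT lay among its 4 highest libraries and replicate 1 of WT was the lowest, so WT spanned nearly the whole range. Tyrobp, the adaptor through which TREM2 and other receptors signal, had normalized counts of 341, 420.2, 202 and 282 in DMC libraries, 316, 222, 274 and 389 in MC, 506, 239.8, 274 and 151 in DC, and 129, 297, 324 and 156 in WT. It showed the same order in WT, and its differences from WT were 0.52 ± 0.36 (adjusted p = 0.577) in DMC, 0.49 ± 0.36 (adjusted p = 0.6) in MC and 0.34 ± 0.36 (adjusted p = 0.766) in DC. Over the 10 shared genes the median log2 difference from WT was 0.34 in DMC, 0.19 in MC and 0.28 in DC, with 10, 7 and 8 genes positive (47.3%, 47.1% and 47.3% of all genes). In mean normalized counts Laptm5 (541 against 598) and Ly86 (131 against 147) were lower in DMC than in WT. The mean level of the class was 8.17 ± 0.41 in DMC, 8.03 ± 0.33 in MC, 8.11 ± 0.59 in DC and 7.82 ± 0.89 in WT on the log2 scale. The Fc receptor gene Fcgr3 and the Fc receptor gamma chain gene Fcer1g differed from WT by 0.38 to 0.70 in the 3 groups, while Laptm5, Mpeg1, Aif1 and Ly86, all highest in WT replicate 3, ranged between -0.39 and 0.29.

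Fcgr3 belongs to a family of Fc receptor genes of similar sequence, and Lyz2 has a near copy in Lyz1, so reads of these genes may be divided between copies and their values are uncertain to that extent.

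The resident class had its highest mean level in DMC pancreas, and all 12 had positive log2 differences from WT there (median 0.66, against 47.3% of all genes). In mean normalized counts, however, Timd4 was lower in DMC than in WT (70.9 against 102). The class level was 8.59 ± 0.35 in DMC, 8.29 ± 0.29 in MC, 8.38 ± 0.52 in DC and 8.03 ± 0.64 in WT. In MC and DC, 10 of the 12 genes had positive differences from WT, with medians of 0.42 and 0.37 (47.1% and 47.3% of all genes). None of the 12 passed the adjusted threshold.

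Cd163, the scavenger receptor for haptoglobin and haemoglobin complexes, gave the smallest p of the set in DMC against WT. Its normalized counts were 630.2, 317, 325 and 276 in DMC libraries, 357, 213, 196 and 192 in MC, 324, 268, 351 and 226 in DC, and 117, 310.1, 184 and 208 in WT. DMC replicate 1 stood far above the other libraries, and the DMC and WT groups overlapped, since WT replicate 2 exceeded DMC replicate 4. The log2 difference was 0.92 ± 0.30 (adjusted p = 0.202) in DMC, 0.26 ± 0.30 (adjusted p = 0.765) in MC and 0.58 ± 0.30 (adjusted p = 0.487) in DC, and DMC stood above MC by 0.66 ± 0.30 (adjusted p = 0.879).

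Folr2, a folate receptor of perivascular and other settled macrophages, had normalized counts of 298, 197, 158 and 145 in DMC libraries, 218, 105, 105 and 231 in MC, 259, 137, 126 and 83.6 in DC, and 77.8, 107, 94.6 and 128 in WT. Every DMC library exceeded every WT library, while both Cre groups with a single loss overlapped WT. Mrc1, the mannose receptor CD206, had normalized counts of 2154, 1623, 1287 and 1355 in DMC libraries, 1768, 803, 1190 and 1688 in MC, 2944, 1400, 1495 and 936 in DC, and 608, 1165, 956 and 1048 in WT. Its DMC libraries also lay above all WT libraries, and DC replicate 1 was its highest. These were 2 of the 3 genes, with Itgam, whose DMC and WT libraries did not overlap, in a comparison where 5.19% of all genes had that pattern upward. The differences from WT in DMC were 0.93 ± 0.34 (adjusted p = 0.272) for Folr2 and 0.78 ± 0.32 (adjusted p = 0.327) for Mrc1, and Mrc1 differed from WT by 0.76 ± 0.32 (adjusted p = 0.376) in DC.

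C1qa, C1qb and C1qc encode the chains of C1q, which tissue macrophages secrete and which tags debris and opens the classical complement pathway. C1qa had normalized counts of 1673, 1557, 967 and 1224 in DMC libraries, 1272, 875, 1012 and 1760 in MC, 1872, 1089, 1126 and 839.7 in DC, and 601, 1273, 1292 and 1191 in WT. WT replicate 1 was the lowest of all libraries, and the remaining libraries of all 4 groups overlapped. C1qb had normalized counts of 1358, 1041, 763 and 916 in DMC libraries, 892, 672, 670.1 and 1202 in MC, 1224, 631, 566 and 512 in DC, and 324, 960.2, 865 and 513 in WT. DMC replicate 1 was its highest library, and its DMC minus WT difference was 0.71 ± 0.33 (adjusted p = 0.398). Ratios of the 3 chains varied less than their level: C1qb over C1qc ranged from 0.794 to 1.27 across the 16 libraries and C1qa over C1qc from 1.34 to 2.51, while C1qc itself spanned 3.57-fold.

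Adgre1, which encodes the mouse macrophage antigen F4/80, had normalized counts of 701, 660.4, 470.3 and 549 in DMC libraries, 651, 418, 482 and 759 in MC, 854, 524, 528 and 398 in DC, and 248, 484, 570.3 and 359 in WT. DC replicate 1 and MC replicate 4 were its highest libraries, and all groups overlapped. Its log2 difference from WT was 0.57 ± 0.27 (adjusted p = 0.398) in DMC, 0.50 ± 0.27 (adjusted p = 0.46) in MC and 0.48 ± 0.27 (adjusted p = 0.52) in DC.

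Timd4 and Lyve1 mark long-lived resident macrophages in many mouse tissues. Timd4 had normalized counts of 89.2, 102, 62.7 and 30.1 in DMC libraries, 19.6, 20.6, 68.7 and 31.2 in MC, 83.2, 35.7, 70.6 and 28.6 in DC, and 7.07, 163, 200.7 and 37.3 in WT. WT held both its lowest library, with 4 recovered reads, and its 2 highest, and these 2, replicates 2 and 3, were the WT libraries rich in B cell genes. The log2 difference was 0.21 ± 0.80 (adjusted p = 0.937) in DMC, -0.84 ± 0.80 (adjusted p = 0.704) in MC and -0.16 ± 0.80 (adjusted p = 0.965) in DC, with standard errors larger than those of any other gene of the set. Lyve1 had normalized counts of 443, 441, 146 and 251 in DMC libraries, 293, 179, 243 and 242 in MC, 789.6, 245, 281 and 162 in DC, and 88.4, 272, 272 and 161 in WT. DC replicate 1 was again the highest library, and the groups overlapped. Lymphatic endothelium also expresses Lyve1, and the mean level of its markers on the log2 scale (5 of 6 listed genes in the table) was 7.27 to 7.97 in DMC, 7.52 to 8.06 in MC, 6.73 to 9.11 in DC and 6.57 to 7.32 in WT; their part in the Lyve1 counts was not tested. An exact permutation test of Lyve1 gave p of 0.314 or more in each of its 6 pairs of groups.

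Cx3cr1, the fractalkine receptor of resident macrophages and patrolling monocytes, followed another order, and it was named after its values were seen. Its normalized counts were 107, 100.1, 109.7 and 96.9 in DMC libraries, 116, 88.9, 112 and 134 in MC, 74.1, 49.8, 70.6 and 53.9 in DC, and 23, 104, 131 and 57.1 in WT. All DMC and all MC libraries lay above all DC libraries, while WT ranged on both sides of them. It was the 1 gene of the 34 without overlap between DMC and DC (3.55% of all genes upward) and the 1 between MC and DC (4.65%). The difference was 0.74 ± 0.38 (adjusted p = 0.411) for DMC against DC and 0.86 ± 0.38 (adjusted p = 0.327) for MC against DC. With library weights it was called in both, along with 11.6% of all genes in DMC against DC and 7.26% in MC against DC. Maf, a transcription factor of resident macrophages also named after its values were seen, had its highest mean in DC, with 342 ± 50.7 in DMC, 311 ± 36.1 in MC, 457 ± 193 in DC and 305 ± 53.9 in WT (SD, n = 4 each) and a log2 difference of -0.48 ± 0.22 (adjusted p = 0.356) for MC against DC. Mertk, the gene with the smallest range, averaged 211 ± 64 in DMC, 171 ± 14.8 in MC, 229 ± 46.7 in DC and 190.3 ± 20.9 in WT.

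The monocyte-derived class had its highest mean level in MC pancreas, but its genes were divided between MC and DMC. In DMC against MC, 3 of the 7 were positive (median log2 difference -0.13, against 51.1% of all genes), and the largest difference was that of Fcgr1 (-0.83). The class level was 7.56 ± 0.28 in DMC, 7.76 ± 0.42 in MC, 7.47 ± 0.59 in DC and 6.95 ± 0.62 in WT. All 7 genes had positive log2 differences from WT in each of the 3 groups, at medians of 0.60 in DMC, 0.60 in MC and 0.35 in DC. Of all genes 47.3%, 47.1% and 47.3% were positive there. Some of these signs were weak. In mean normalized counts Lyz2 in MC (3509 against 3998) and Cybb in MC and DC (488 and 464.5 against 497) lay below WT. Over the alternatives the MC difference reached -0.45 for Lyz2 and -0.187 for Cybb. None passed the adjusted threshold.

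Ccr2, the receptor by which inflammatory monocytes leave the marrow and enter tissue, lies at chr9:124101950-124113557 on the plus strand of GRCm38. It had normalized counts of 469.9, 631, 572 and 434 in DMC libraries, 831, 551, 541 and 809.5 in MC, 870.4, 562, 485 and 354 in DC, and 141, 272, 480.5 and 396 in WT. All 4 MC libraries exceeded all 4 WT libraries, whereas DMC and DC each overlapped WT. Ccr2 was the 1 gene of the set without overlap between MC and WT, where 4.16% of all genes had that pattern upward. The log2 difference was 0.83 ± 0.33 (adjusted p = 0.301) in DMC, 1.19 ± 0.33 (adjusted p = 0.106) in MC and 0.88 ± 0.33 (adjusted p = 0.314) in DC. A two-sided exact permutation test over 70 assignments gave p = 0.0286 in MC against WT, the smallest it allows, or 0.343 after adjustment over the 24 tests of Ccr2, Csf1r, Trem2 and Lyve1. The adjusted value could fall under 0.05 only if many of the 24 tests reached that smallest p. So 0.343 is no evidence that the groups are alike. Its p was 0.0857 in DMC against WT and 0.114 in DC against WT.

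Fcgr1, the high-affinity Fc receptor CD64 that separates macrophages and monocytes from dendritic cells, lies at chr3:96282909-96293969 on the minus strand. Its normalized counts were 54.6, 102, 45.7 and 72.2 in DMC libraries, 209.5, 88.9, 65.7 and 154 in MC, 109, 58.1, 62.7 and 47.3 in DC, and 10.6, 41.6, 74.2 and 27.4 in WT. MC replicates 1 and 4 were its 2 highest libraries, WT replicate 1 had the lowest value with 6 recovered reads, and WT replicate 3 exceeded MC replicate 3. The log2 difference from WT was 1.05 ± 0.49 (adjusted p = 0.391) in DMC, 1.88 ± 0.49 (adjusted p = 0.0873) in MC and 1.06 ± 0.49 (adjusted p = 0.42) in DC. In MC against WT it was called by DESeq2 (adjusted p = 0.0191), without WT replicate 3 (adjusted p = 0.0465, 0.436% of all genes called) and without WT replicates 2 and 3 (adjusted p = 0.0245, 0.605%), and its adjusted p ranged from 0.0191 to 0.239 over 29 alternatives. Ccr2 was called there by DESeq2 (adjusted p = 0.0364) and with library weights (adjusted p = 0.043, 1.86% of all genes called), within a range of 0.0364 to 0.289.

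Ccl2, the chemokine that draws CCR2-bearing monocytes, was the sparsest gene of the set in reads, with 267 over all libraries. It had normalized counts of 20.04, 20.3, 11.8 and 10.1 in DMC libraries, 27, 15.9, 11.1 and 37.7 in MC, 25.1, 5.81, 9.12 and 7.70 in DC, and 7.07, 12.7, 9.79 and 7.69 in WT. Its highest libraries were MC replicates 4 and 1, and MC replicate 3 lay below the highest WT library. The log2 difference was 0.65 ± 0.46 (adjusted p = 0.587) in DMC, 1.11 ± 0.46 (adjusted p = 0.324) in MC and 0.15 ± 0.46 (adjusted p = 0.934) in DC. Cd14, a co-receptor for bacterial lipopolysaccharide, had normalized counts of 150.3, 114, 141 and 165 in DMC libraries, 115, 119, 186 and 226 in MC, 272, 78.8, 109 and 83.6 in DC, and 134, 121, 55.5 and 121 in WT. DC replicate 1 was the highest library and WT replicate 3 the lowest, and the groups overlapped.

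Itgam, the integrin CD11b of monocytes, macrophages and neutrophils, gave the smallest p of the set in DC against WT. Its normalized counts were 51.9, 55.5, 48.3 and 44.8 in DMC libraries, 60.04, 30.2, 44.5 and 74 in MC, 91.2, 55.6, 63.8 and 41.8 in DC, and 19.4, 40.7, 41.6 and 34 in WT. All DMC and all DC libraries exceeded all WT libraries, with DC replicate 4 only just above WT replicate 3, and MC replicate 2 lay within the WT range. It was the 1 gene of the set without overlap between DC and WT (3.72% of all genes upward). The log2 difference was 0.60 ± 0.31 (adjusted p = 0.433) in DMC, 0.59 ± 0.31 (adjusted p = 0.448) in MC and 0.88 ± 0.31 (adjusted p = 0.282) in DC. Neutrophil genes, of which 7 of 10 were measured here, had mean log2 levels of 2.86 to 3.96 in DMC, 3.83 to 5.06 in MC, 3.69 to 6.58 in DC and 2.93 to 3.80 in WT. Their summed normalized counts were 132 to 206 in DMC, 149 to 320 in MC, 146 to 1362 in DC and 90.2 to 159 in WT, and their part in the values of Itgam, Cd14 and Cybb was not tested.

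Lyz2 had normalized counts of 5722, 6096, 2933 and 2935 in DMC libraries, 3930, 1964, 3773 and 4370 in MC, 7411, 3742, 3947 and 2861 in DC, and 1230, 6568, 5530 and 2662 in WT, with DC replicate 1 highest, WT replicate 2 second and WT replicate 1 lowest. Its log2 difference from WT was 0.33 ± 0.46 (adjusted p = 0.797) in DMC, 0.02 ± 0.46 (adjusted p = 0.989) in MC and 0.35 ± 0.46 (adjusted p = 0.822) in DC. Cybb, the catalytic subunit of the phagocyte oxidase, had normalized counts of 628, 779, 350.1 and 430.4 in DMC libraries, 536, 387, 509 and 522 in MC, 696, 414, 439.8 and 308 in DC, and 154, 772, 786 and 277 in WT. WT held its lowest library and 2 of its 3 highest, and the log2 differences from WT were 0.38 in DMC, 0.27 in MC and 0.15 in DC.

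**Figure D3:**
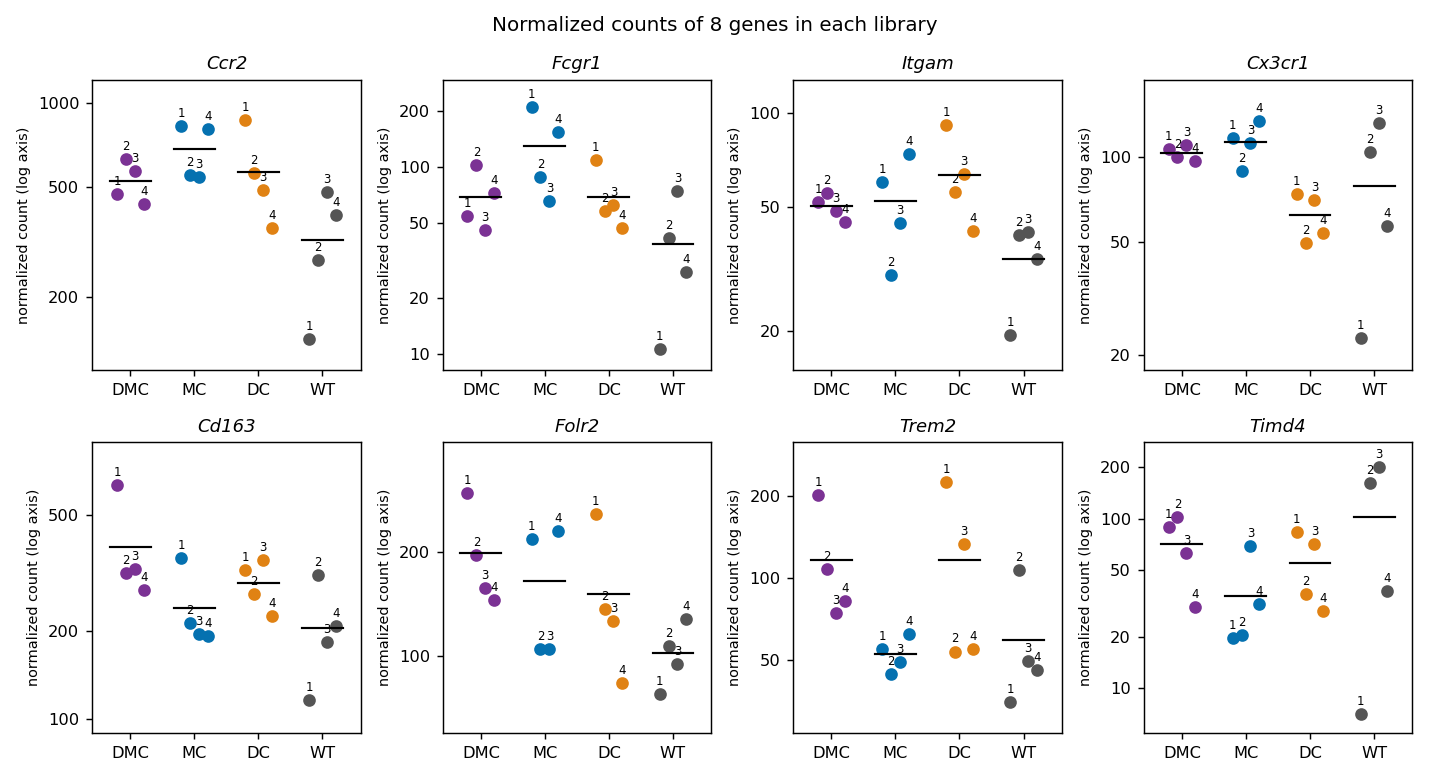
Points show the normalized count (log axis) of 8 genes in each library, numbered by replicate, for DMC, MC, DC and WT, with a bar at the group mean. Ccr2 is above every WT library in all 4 MC libraries, Itgam and Folr2 are above every WT library in all 4 DMC libraries, and Cx3cr1 is higher in every DMC and MC library than in every DC library.

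The lipid or scavenger class had mean levels of 8.23 ± 0.39 in DMC, 7.67 ± 0.14 in MC, 8.08 ± 0.89 in DC and 7.70 ± 0.69 in WT, and no gene of it passed the adjusted threshold. The DC mean rests on replicate 1, at 9.33, against 7.54, 8.06 and 7.37 in DC replicates 2, 3 and 4. All 5 genes were positive in DMC against MC (median log2 difference 0.34, against 51.1% of all genes). Against WT the median was 0.43 in DMC (4 of 5 genes positive, against 47.3% of all genes), 0.09 in MC (3 of 5, 47.1%) and 0.36 in DC (4 of 5, 47.3%). Gpnmb had its highest mean in WT, with 135 ± 23.97 normalized counts in DMC, 70.1 ± 25.0 in MC, 167.5 ± 196 in DC and 183 ± 156 in WT.

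Trem2, the lipid-sensing receptor of macrophages that clear injured tissue, lies at chr17:48346401-48354147. Its normalized counts were 200.4, 108, 74.5 and 82.2 in DMC libraries, 55.1, 44.5, 49.5 and 62.4 in MC, 223, 53.9, 133 and 55 in DC, and 35.4, 107, 49.8 and 46.1 in WT. Every DMC library exceeded every MC library, and the MC libraries lay close together, while DC and WT were spread widely. Trem2 and Gpnmb were the 2 genes of the set without overlap between DMC and MC, where 2.14% of all genes had that pattern upward. The log2 difference was 1.02 ± 0.44 (adjusted p = 0.842) for DMC against MC, 0.97 ± 0.44 (adjusted p = 0.377) for DMC against WT and 0.83 ± 0.44 (adjusted p = 0.502) for DC against WT. The exact permutation test of DMC against MC gave p = 0.0286, the smallest possible, and 0.343 after adjustment over the 24 tests, with the same limit as for Ccr2.

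Gpnmb, a glycoprotein of lysosome-rich, lipid-laden macrophages, had normalized counts of 161, 137, 103 and 139.8 in DMC libraries, 95.6, 81, 66.7 and 37 in MC, 461, 79.6, 79.8 and 49.5 in DC, and 120.2, 416, 105 and 91.1 in WT. DC replicate 1 and WT replicate 2 each stood far above all other libraries, and these set the means of their groups. Every DMC library exceeded every MC library, with a log2 difference of 1.002 ± 0.58 (adjusted p = 0.943), and MC against WT gave -1.15 ± 0.58 (adjusted p = 0.425).

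Apoe had normalized counts of 8012, 6838, 4593 and 6573 in DMC libraries, 5172, 4407, 6471 and 6968 in MC, 12360, 5049, 6218 and 4620 in DC, and 3798, 7057, 5803 and 4249 in WT. Cd68, the lysosomal antigen of phagocytes, had normalized counts of 281, 242, 133 and 220.2 in DMC libraries, 173, 136, 159 and 209.6 in MC, 342, 166, 181 and 124 in DC, and 106, 237, 166 and 145 in WT. For both genes, DC replicate 1 was the highest and WT replicate 1 the lowest library, and the groups overlapped. The differences from WT were 0.33 ± 0.28 (adjusted p = 0.659) in DMC for Apoe and 0.43 ± 0.30 (adjusted p = 0.587) for Cd68. Msr1, the class A scavenger receptor, averaged 129.7 ± 50.6 in DMC, 102 ± 21.2 in MC, 123 ± 85.4 in DC and 74.7 ± 49.7 in WT, with a log2 difference of 1.09 ± 0.56 (adjusted p = 0.437) in DMC against WT.

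**Figure D4:**
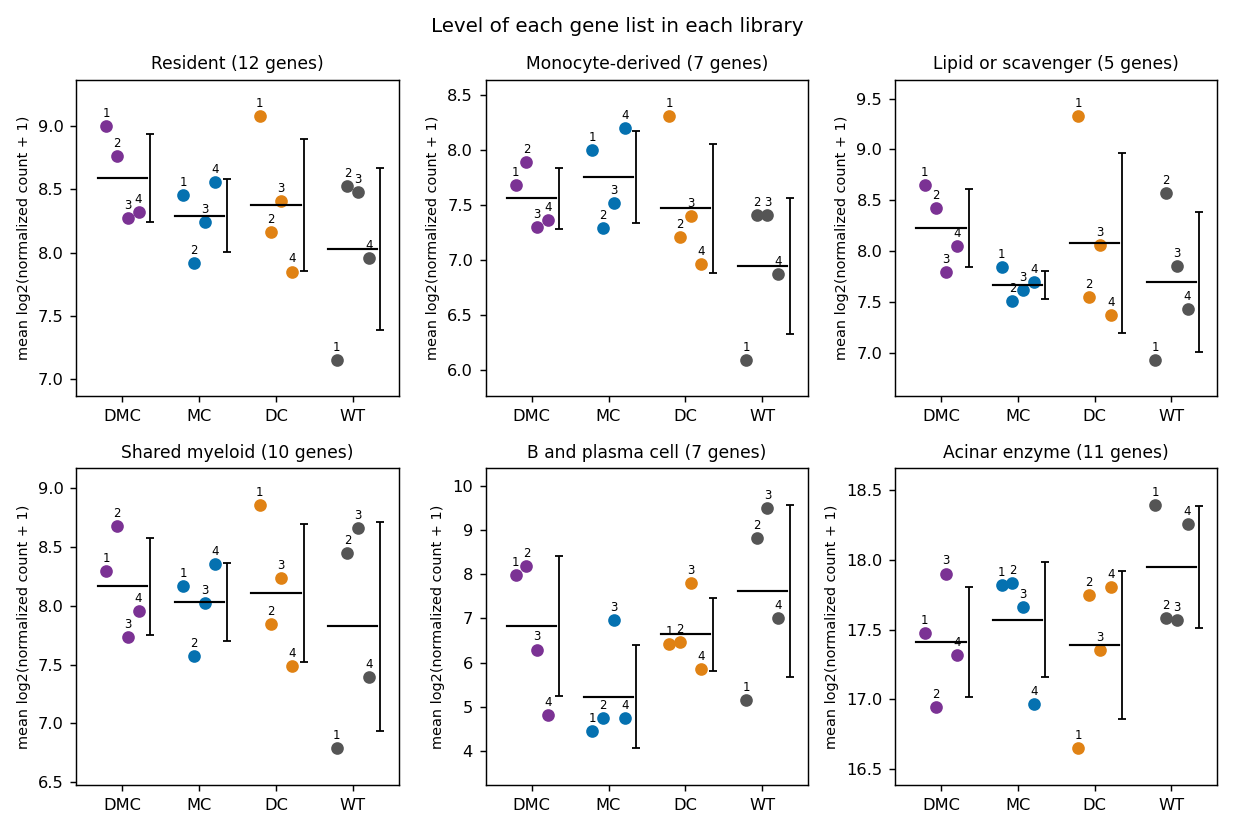
Points show, per library and numbered by replicate, the mean log2(normalized count + 1) over the genes of each list for DMC, MC, DC and WT, with bars at the group mean and SD. The 4 myeloid classes share the high DC replicate 1 and the low WT replicate 1, B and plasma cell genes are highest in WT replicates 2 and 3, and acinar enzymes show DC replicate 1 low and WT replicate 1 high.

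Each gene was also set against the mean of the 10 shared myeloid genes in its own library. That mean includes genes of B cells, and values on this scale differed between the WT libraries rich in B cell genes and the others: Adgre1 lay at 0.47 and 0.50 in WT replicates 2 and 3 and at 1.17 and 1.10 in WT replicates 1 and 4. B and plasma cell genes also differed between mutant groups, with a median log2 difference of 1.56 in DMC against MC. The part of lymphoid cells in any comparison on this scale was not tested. On that scale the monocyte-derived class lay at -0.78 to -0.43 in DMC, -0.50 to -0.15 in MC, -0.83 to -0.52 in DC and -1.25 to -0.52 in WT, so the 4 MC libraries stood above all DC and WT libraries, the lowest of them by a small margin. The lipid or scavenger class lay at -0.25 to 0.36 in DMC, -0.66 to -0.06 in MC, -0.30 to 0.47 in DC and -0.81 to 0.15 in WT. The resident class lay at 0.08 to 0.70 in DMC, 0.21 to 0.34 in MC, 0.18 to 0.36 in DC and -0.19 to 0.56 in WT, with overlap between all groups. The class scores are descriptions with no test of their own.

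Among single genes on that relative scale, Fcgr1 lay at -2.50 to -1.76 in DMC, -1.96 to -0.45 in MC, -2.24 to -1.90 in DC and -3.25 to -2.43 in WT. Its MC and its DC libraries were all above its WT libraries, while the lowest DMC library fell within the WT range. Cx3cr1 lay at -2.02 to -0.94 in DMC, -1.30 to -1.08 in MC, -2.63 to -1.71 in DC and -2.20 to -1.54 in WT, and Trem2 at -1.91 to -0.64 in DMC, -2.37 to -2.07 in MC, -2.06 to -1.05 in DC and -3.00 to -1.60 in WT. Of the 24 genes outside the shared class, 2 were without overlap upward in MC against WT (Fcgr1 and Cx3cr1, 0.788% of all genes), 1 in DC against WT (Fcgr1, 0.288%), 0 in DMC against WT (0.942%), 1 in DMC against MC (Trem2, 0.654%), 0 in DMC against DC (2.37%) and 1 in MC against DC (Cx3cr1, 2.42%). Downward, Trem2 and Maf were without overlap in MC against DC (1.56% of all genes), both by very small margins. The highest MC and lowest DC libraries stood at -2.067 and -2.064 for Trem2, and at 0.465 and 0.474 for Maf. In normalized counts both genes overlapped between MC and DC. None of the 24 was without overlap downward on that scale in DMC against WT (1.46% of all genes), MC against WT (1.24%), DC against WT (1.08%), DMC against MC (1.15%) or DMC against DC (1.07%). Within the shared class itself, Laptm5 was without overlap upward (0.654% of all genes) and Spi1 downward (1.15%) in DMC against MC. Both genes are part of the mean subtracted from them, so their values on this scale are not independent of it. In normalized counts both overlapped between these groups.

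**Figure D5:**
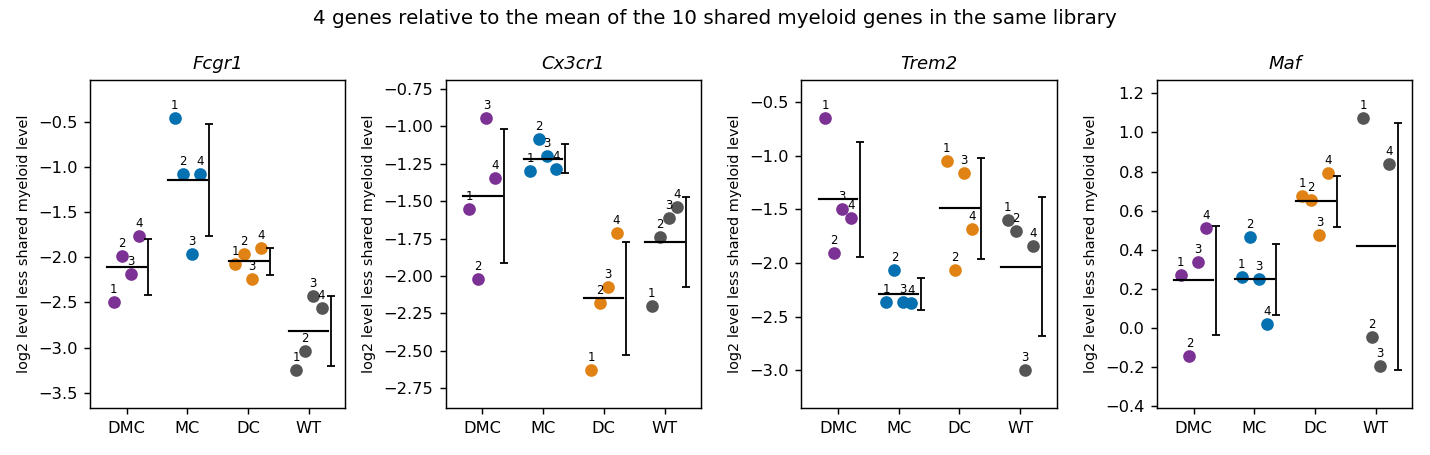
Points show log2(normalized count + 1) of Fcgr1, Cx3cr1, Trem2 and Maf less the mean of the 10 shared myeloid genes in the same library, numbered by replicate, for DMC, MC, DC and WT, with bars at the group mean and SD. Fcgr1 is higher in every MC and DC library than in every WT library. Trem2 is lower in every MC library than in every DMC library. Against DC its margin is very small (highest MC library -2.067, lowest DC library -2.064).

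The design also asks whether loss of both genes differs from the sum of the single losses. As given above, limma called 0 of the 34 genes in that interaction, and 0.0% of all genes. At an unadjusted p under 0.05 it was negative for 2 genes, Fcgr1 and Ccr2 (4.61% of all genes). The interaction was -1.89 ± 0.69 for Fcgr1 and -1.24 ± 0.46 for Ccr2 (adjusted p = 0.518 for each), and for both the DMC mean lay between the MC and WT means. Among direct comparisons of mutants, 27 of 34 genes were positive in DMC against MC (median 0.19, against 51.1% of all genes), 23 in DMC against DC (0.15, 50.6%) and 16 in MC against DC (-0.10, 50.0%). The median was 0.04 in DMC against MC without MC replicate 2, was -0.08 in DMC against DC without DC replicate 4, and was 0.17 in MC against DC without DC replicate 1.

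Beyond the 34 genes, 85 further genes of macrophage biology in 5 lists were examined, of which 79 were in the table and 77 were tested. Of 18 tested lipid handling and lysosome genes, 1 passed in MC against WT and in MC against DC, higher in MC in both (0.485% and 0.591% of all genes higher). Of 18 tested complement and dead-cell clearance genes, 1 passed in DMC against WT, higher in DMC (0.591% of all genes). In the other comparisons and in the lists of chemokines and growth factors (15 tested), activation genes (13) and macrophage transcription factors (13), 0 genes passed by limma in either direction. Csf2, Ccl3, Ccl4, Il1a, Il6, Nos2, Il10 and Clec4f were not tested.

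Fabp5, a fatty acid binding protein of macrophages and epithelia, had normalized counts of 502, 653, 673 and 742 in DMC libraries, 910.5, 808, 756 and 975 in MC, 397, 424, 293 and 471 in DC, and 276, 314, 447 and 457 in WT. Every MC library exceeded every library of the other groups. It rose in MC pancreas, with means of 862 ± 98.8 in MC and 373 ± 92.1 in WT (SD, n = 4 each) and a log2 difference of 1.23 ± 0.18 (adjusted p = 0.00575), and stood above DC by 1.13 ± 0.18 (adjusted p = 0.00679). In DMC the difference from WT was 0.80 ± 0.18 (adjusted p = 0.0562). Its call in MC against WT held in 29 of 29 alternatives, at adjusted p of 4.18e-07 to 0.0285, and so did that in MC against DC, at 1.88e-06 to 0.0292. Fabp5 is not specific to macrophages, since many cell types of the pancreas can express it.

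Gas6, the bridge between dying cells and the receptors MERTK and AXL, had normalized counts of 2789, 2827, 2321 and 2749 in DMC libraries, 2457, 2314, 2120 and 3070 in MC, 3725, 1851, 2419 and 1645 in DC, and 1611, 1381, 1032 and 1340 in WT. All libraries of the 3 mutant groups exceeded all WT libraries. It rose in DMC, with 2671 ± 236 in DMC against 1341 ± 238 in WT and a log2 difference of 1.01 ± 0.21 (adjusted p = 0.0348). That call held in 18 of 29 alternatives (adjusted p of 0.0013 to 0.141) and was lost without any 1 of 8 libraries: DMC replicates 1, 2 and 4 (0.093, 0.103 and 0.124), MC replicate 2 (0.0529), DC replicate 3 (0.0538) and WT replicates 2, 3 and 4 (0.0679, 0.101 and 0.082). The difference was 0.90 ± 0.21 (adjusted p = 0.0544) in MC and 0.79 ± 0.21 (adjusted p = 0.152) in DC. Mfge8, which also bridges dying cells to phagocytes, had a log2 difference of -1.02 ± 0.24 (adjusted p = 0.0544) in MC against WT, with 858 ± 135 in MC and 1850 ± 812 in WT. Its WT counts were 1391, 1944, 2952 and 1113, highest in replicates 2 and 3, the WT libraries rich in B cell genes. Over 29 alternatives the Mfge8 difference ranged from -1.23 to -0.55 (adjusted p of 0.00147 to 0.244). The part of lymphoid tissue in it was not tested. Fibroblasts are a known source of Gas6, and the mean log2 level of 7 fibroblast genes was 10.5 to 11.3 in DMC, 10.8 to 11.4 in MC, 10.9 to 12.02 in DC and 10.6 to 10.7 in WT; their part in the Gas6 difference was not tested. In DC against WT the smallest p values of these lists belonged to Csf2ra and Cebpb. Csf2ra, a receptor subunit for GM-CSF, averaged 185 ± 69.6 in DC and 94.4 ± 21.2 in WT, with a log2 difference of 0.92 ± 0.24 (adjusted p = 0.152). Cebpb, a transcription factor of monocytes, averaged 85.2 ± 19.4 in DC and 46.3 ± 7.56 in WT, with a difference of 0.85 ± 0.22 (adjusted p = 0.152).

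Of the 34 genes, 4 share a chromosome with a floxed locus. Aif1 lies 1.26 Mb from Daxx on chromosome 17, Trem2 14.4 Mb and Adgre1 23.4 Mb from it, and Mpeg1 lies 6.12 Mb from Men1 on chromosome 19. Aif1, the nearest of the 34, averaged 69.3 ± 24.5 normalized counts in DMC, 58.3 ± 26.5 in MC, 60.2 ± 35.6 in DC and 66.6 ± 44.3 in WT, with overlap between all groups. Distances were worked out for the 34 genes only, not for further genes such as C4b, Gas6 or Fabp5.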

How the data were processed

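Total RNA from flash-frozen whole pancreas was made into strand-specific libraries, per the labels' protocols. Per the submitters' processing notes, reads were aligned with STAR 2.6.0b to GRCm38 and DESeq2 was used. How reads were assigned to genes, and with which annotation, is not stated in the labels or notes. The table deposited by the authors holds signal per gene and library, namely read counts after division by that library's size factor. All values of a library (100%) came out as whole numbers of reads, to within 0.01, once divided by its smallest step, which recovered the reads. A value of 0 allows up to 3 reads (1.84 to 5.30 normalized counts), counting error only. Libraries of a group differed by far more than sampling noise (chi-square at least 9.04 per degree of freedom), so none was counted as a repeat of another.

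Tests covered the 14220 genes that reached 10 normalized counts in 4 or more libraries, among them all 34 members. The log2 of the normalized count plus 1, which understates changes of low genes, was fitted with limma 3.58.1 (trend) in R 4.3.3. All 16 libraries entered a single fit with 1 coefficient per genotype, and p values were adjusted by Benjamini-Hochberg within each comparison at a threshold of 0.05. A list's level is the mean of that log2 value over its genes. The exact permutation tests, two-sided, had 70 assignments each. The alternatives were pseudocounts of 0.5 and 8, no filter or a mean of at least 50, TMM and quantile scaling, edgeR 4.0.16 and DESeq2 1.42.0 on recovered reads, fits of only the groups compared, a replicate block, library weights, leaving out each library, and leaving out WT replicates 2 and 3. Leaving out WT replicate 1 and DC replicate 1 together was chosen after seeing the data. The fits were tested on simulated data. Exon lengths and coordinates came from the GENCODE mouse annotation on GRCm38, in which 15152 of 15156 identifiers were found.

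The members and lists were chosen with earlier results of these data known. Values per library are given for the 2 most abundant genes per length of each class, for genes named by role, and for the 3 smallest p values in each comparison with WT. Cx3cr1, Maf, Msr1, Mertk, C1qc, Fcgr3, Fcer1g, Laptm5, Mpeg1, Ly86 and Aif1 were described after their values were seen. Of the further lists, genes past the threshold and the 2 smallest p values in each comparison with WT are named.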

Additional observations from a re-analysis of the deposited data

Results flagged for a closer look

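In each group of 4 libraries, the highest or lowest library was compared with the nearest of the other 3, for each of the 34 genes and each of the 4 class levels. Of 152 groups examined, 5 (3.29%) had a library far from the rest, and chance alone marks about 1 in 20 groups. C1qa stood at 601 normalized counts in WT replicate 1, below 1191 to 1292 in the other WT libraries. Cd14 stood at 55.5 in WT replicate 3, below 121 to 134 in the others. Fcgr3 stood at 629 in DC replicate 1, above 255 to 289.5 in the others. Cd163 stood at 357 in MC replicate 1, above 192 to 213 in the others, and Cybb at 387 in MC replicate 2, below 509 to 536 in the others.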

How the results depend on the processing

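In MC against WT, where limma called 0 of the 34 genes, DESeq2 called 2 (Fcgr1 and Ccr2, 2.75% of all genes), library weights 1 (Ccr2, 1.86%), the fit without WT replicates 2 and 3 called 2 (Fcgr1 and Cx3cr1, 0.605%) and the fit without WT replicate 3 called 1 (Fcgr1, 0.436%). Library weights called 4 in DMC against DC (C1qb, C1qc, Cx3cr1 and Ccl2), where they called 11.6% of all genes, and 2 in MC against DC (Cx3cr1 and Ccl2, 7.26%), so both counts sit near the background. Without WT replicates 2 and 3 the median log2 difference of the set was 1.08 in DMC, 0.90 in MC and 0.91 in DC against WT. The call of Gas6 in DMC against WT was lost in 11 of 29 alternatives, among them quantile scaling (adjusted p = 0.058), the replicate block (0.0557) and the fit without WT replicates 2 and 3 (0.141). The cause of these changes was not tested. Leaving out 1 library at a time gave 0 to 1 called genes in MC against WT and 0 in every other comparison and the interaction. The permutation tests also gave 0, but their smallest p of 0.0286 was 0.343 after adjustment with all libraries, so that 0 says nothing about stability. The median then ranged from 0.22 to 0.71 in DMC, 0.03 to 0.56 in MC and 0.06 to 0.52 in DC against WT. It ranged from 0.04 to 0.31 in DMC against MC, -0.08 to 0.39 in DMC against DC and -0.29 to 0.17 in MC against DC. The lowest values against WT came without WT replicate 1 in DMC (0.22) and MC (0.03) and without DC replicate 1 in DC (0.06); in DC the median was -0.19 without both libraries, chosen after seeing the data, and -0.11 with library weights. Of 2952 alternative values for single genes against WT, 2775 kept the direction and 177, none of them a call, did not. Many of these values could not change direction. Other filters, fits of only the groups compared, the replicate block and leaving out a library of another group leave the log2 difference unchanged. The count that kept direction is therefore no measure of stability.

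With a replicate block 0 genes of the set were called in any comparison. The medians against WT (0.45 in DMC, 0.33 in MC and 0.31 in DC) could not change with the block. Each replicate number occurs once in every genotype, so only the p values can differ. The replicate numbers did not pair the libraries: same-numbered deviations correlated at -0.37 to 0.38, with 11 of 24 pairs over 0.1, and 1 of 16 libraries correlated best with its own number. Over all genes, limma called 112 in DMC, 111 in MC and 3 in DC against WT, DESeq2 331, 391 and 281, library weights 245, 265 and 177, the block 36, 46 and 3, and fits of only the groups compared 16, 67 and 1. Scaling moved the median of all genes by under 0.05. Genes with few reads, such as Timd4 and Fcgr1 with 4 and 6 reads in their lowest libraries and Ccl2 with 267 over all libraries, limit what these 4 animals per group can show.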

Other observations

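Other complement and clearance genes stood above WT in DMC pancreas, and they are named here after their values were seen. The pattern was not particular to DMC. Against WT, 16 of the 18 tested genes were positive in DMC (median 0.695, against 47.3% of all genes). In MC 15 were positive (0.493, 47.1%), and in DC 15 (0.485, 47.3%). The highest library of all was DC replicate 1 for C4b (8273) and MC replicate 1 for C3ar1 (230.4). Of the 18 tested genes of that list, 10 were higher in DMC than in WT at an unadjusted p under 0.05 (8.43% of all genes), and of these only Gas6 passed the adjusted threshold. C4b, a complement component cleaved by C1s, averaged 4407 ± 1127 normalized counts in DMC and 1791 ± 589.6 in WT (SD, n = 4 each), a log2 difference of 1.32 ± 0.41 (SE, limma adjusted p = 0.19). Its counts were 5346, 3761, 2439 and 4603 in MC libraries and 8273, 2084, 2669 and 1493 in DC libraries. Its distance from the floxed Daxx and Men1 loci was not worked out. C1s1, the C1s protease itself, averaged 2065 ± 409 in DMC and 1232 ± 253 in WT (0.74 ± 0.26, adjusted p = 0.249). C3ar1, a receptor for a fragment of C3 on myeloid cells, averaged 129.6 ± 14.1 in DMC and 68.2 ± 18.5 in WT (0.96 ± 0.33, adjusted p = 0.226). Fibroblasts, whose marker levels are given above, also make C4b and C1s1, and their part was not tested.

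Ligands of CCR2 were also named after their values were seen. Ccl12, a mouse ligand of CCR2, had the largest log2 difference of the chemokine list in MC against WT, 2.72 ± 0.70 (SE; limma adjusted p = 0.0857), and Ccl7, another ligand, had 1.53 ± 0.69 (adjusted p = 0.367). Both averaged few counts, 33.9 ± 17.4 in MC against 6.71 ± 6.82 in WT for Ccl12, and 19.3 ± 14.4 in MC against 5.03 ± 2.88 in WT for Ccl7. The differences from WT were 1.84 ± 0.70 in DMC and 1.34 ± 0.70 in DC for Ccl12, and 0.23 ± 0.69 and 0.99 ± 0.69 for Ccl7. Ccl12 stood at 0 and 2.196 in WT replicates 1 and 4, under the level of 3 reads there (5.304 and 3.294). Ccl7 in MC replicate 2 (4.762) lay within the WT range.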
